A study of Mus musculus with 16 samples.

Results

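The 44 genes described here carry out DNA replication and mitosis, and were picked by name for these functions; no threshold on their measured values was applied, but earlier results of these data were known when the list was made. All 44 were found among the 24091 genes of the TPM table (a transcript level scaled by transcript length and to a constant library total). All 44 also reached the mean of at least 1 TPM that was needed for testing, as did 12155 genes in all. For the comparison of cell cycle phases, 22 were assigned to S phase, 20 to G2 and M, and 2 (Ccnd1 and Stmn1) to neither.

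The libraries came from epithelial cells of the caecum of C57BL/6 mice, and 9 RNA libraries in 3 groups of 3 were used. The other 7 of the 16 samples of the series were chromatin samples and were not analysed here. Every mouse, controls included, drank water sweetened with Splenda at 10 g/L. The vehicle group received nothing else in its water for 7 days, whereas both ampicillin groups received ampicillin, a beta-lactam antibiotic that kills gut bacteria, at 1 g/L. A mock gavage of 25% glycerol was given on day 7 to vehicle mice and to 1 of the ampicillin groups. The remaining ampicillin group was gavaged with tributyrin, a triglyceride that releases the bacterial metabolite butyrate in the gut, and all cells were collected 6 h after gavage. The dose of tributyrin was not found in the labels, and a glycerol content was recorded only for the mock gavage. Any effect of the glycerol therefore cannot be told apart from that of tributyrin. No vehicle group received tributyrin, so the effect of tributyrin could be read only in ampicillin-treated mice. The labels number the replicates but do not state that each is a separate mouse, so the p-values measure the spread between these libraries, which may be partly technical.

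Before a cell divides, origins of replication are licensed in G1 by loading of the MCM2-7 helicase, fired at the start of S phase, and copied by polymerases supplied with deoxynucleotides. Cyclin-dependent kinases, the spindle, the kinetochores and the chromosomal passenger complex then separate the copies in mitosis. In the intestinal epithelium dividing cells lie in the crypts, and cells that leave the crypt stop dividing, so transcripts of these genes mark the crypt compartment. Transcription in S phase depends largely on E2F factors, and in G2 and M on complexes that act through the cell cycle genes homology region (CHR) and through CCAAT boxes, which bind NF-Y.

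The labelled cell type was checked against markers. The 9 epithelial markers, Epcam and the keratins among them, summed to 13100 to 14900 TPM in vehicle libraries, 10500 to 10900 with ampicillin and 11800 to 12700 with ampicillin and tributyrin. Markers of fibroblasts (3.22 to 5.33 TPM) and of myeloid cells (3.48 to 6.34 TPM) were low in every library. The TPM columns summed to 999833 to 999866, and TPM keeps no depth, so the number of reads behind a value is unknown. Between 11746 and 12239 genes reached 1 TPM in a library.

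Levels of the 44 genes differed widely from one another on the TPM scale. The highest means over the 9 libraries were those of Stmn1, the microtubule destabiliser stathmin, at 269 TPM, and of Pcna, the sliding clamp of replication, at 246 TPM. Hmgb2, a chromatin protein, followed at 158 TPM, and Ube2c, an E2 enzyme of the anaphase-promoting complex, at 106 TPM. The lowest were Cenpf, a kinetochore protein, at 4.11 TPM and Cdc6, the loader of the MCM helicase, at 5.02 TPM. Stmn1, Pcna, Tyms, Ccnb1 and Ccnb2 have annotated entries named as copies, and 11 of the 44 genes, Ccnd1, E2f1, Fen1 and Gins2 among them, overlap another protein-coding gene. How the authors' quantification split such reads is not given in the sources used here, so the values of these genes are uncertain to that extent.

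The S phase genes and the G2 and M genes carried different motifs in their promoters; promoter sequence was not used to choose or sort them. Windows of 250 bases before to 50 after each start were taken from RefSeq (GRCm38.p6), and 35 of the 44 genes matched, 19 of S phase and 16 of G2 and M. These motifs were searched on both strands. The E2F motif was any of TTTCCCGC, TTTGGCGC, TTTCGCGC and TTTGCCGC, the CHR was TTTGAA or TTCGAA, and the CCAAT box was CCAAT. An E2F match was found in 9 of 19 S phase genes (47.4%) and in 1 of 16 G2 and M genes (6.25%, Cdk1), against 4.78% of the 9455 tested genes with a window. A CHR was found in 14 of 16 G2 and M genes (87.5%) and 4 of 19 S phase genes (21.1%), against 16.4% of tested genes. The CCAAT box was in 15 of 16 G2 and M genes (93.8%) and 11 of 19 S phase genes (57.9%), against 43.3%. Both the CHR and CCAAT were in 14 of 16 G2 and M genes (87.5%) and 3 of 19 S phase genes (15.8%), against 8.25% of tested genes. Of G2 and M genes, Ccnb1 had CCAAT without a CHR and Birc5 had neither. Over all 32851 windows of the table the shares were 2.26% for E2F, 19.2% for CHR and 37.4% for CCAAT. A match is a string of letters and not a measured binding site.

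**Figure D1:**
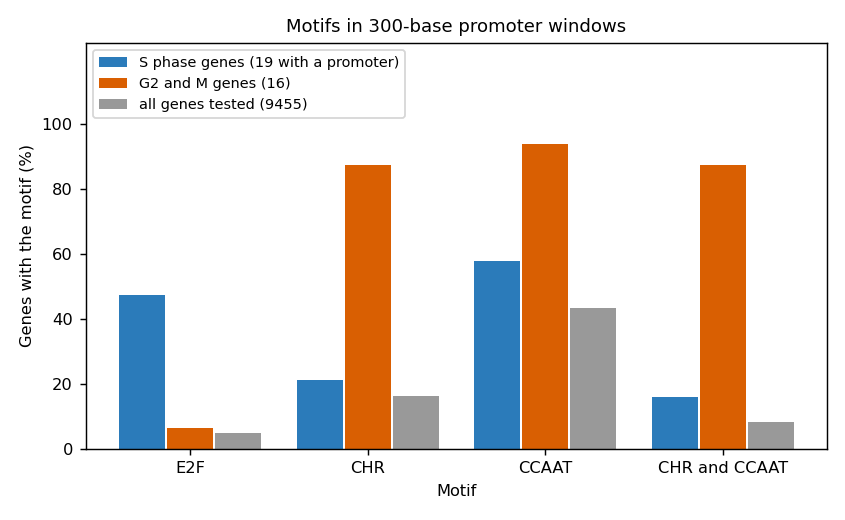
Share of genes (vertical axis, percent) with at least 1 match to each motif in the promoter window, for S phase genes (blue, 19), G2 and M genes (orange, 16) and all tested genes with a window (grey, 9455). The E2F bar is tallest for S phase genes (47.4%), and the CHR and CCAAT bars are tallest for G2 and M genes (87.5% and 93.8%).

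The promoters of 6 genes that rose with tributyrin are shown, 3 of S phase and 3 of G2 and M. Cdc6, Mcm10, Birc5 and Top2a were taken for the smallest adjusted p of their phase in any comparison, among genes with 1 window. Cdc6, Mcm6, Top2a and Cdk1 hold the motif of their phase, and Mcm10 and Birc5 do not. Mcm6 and Cdk1 were added after their values were seen. Each is the 250 bases before the start of its window entry, 5′ to 3′ on the gene's strand, with motif matches of either strand in capitals. Cdc6 (chr11:98907901-98908150, plus strand) has 1 E2F match, on the opposite strand, 138 to 131 bases before the start of its window entry. That start lies downstream of the annotated gene start at 98907709. The printed Cdc6 bases, with the E2F match, therefore lie inside the annotated gene and not before it. Mcm10 (chr2:5012792-5013041, minus strand) has no E2F match and 2 CCAAT boxes. Mcm6 (chr1:128359706-128359955, minus strand) has 3 E2F matches, of which the pair at 110 to 103 and 106 to 99 bases before the start overlaps, and 2 CCAAT boxes. Birc5 (chr11:117848987-117849236, plus strand) has none of these motifs. Top2a (chr11:99024190-99024439, minus strand) has 4 CHR matches, the last 23 to 18 bases before the start of its window entry, and 6 CCAAT boxes. Its annotated gene start is at 99024199, so the last few printed bases lie inside the gene. Cdk1 (chr10:69352913-69353162, minus strand) has 2 CHR matches, the last 15 to 10 bases before the start, 3 CCAAT boxes and 1 E2F match.
Cdc6 promoter: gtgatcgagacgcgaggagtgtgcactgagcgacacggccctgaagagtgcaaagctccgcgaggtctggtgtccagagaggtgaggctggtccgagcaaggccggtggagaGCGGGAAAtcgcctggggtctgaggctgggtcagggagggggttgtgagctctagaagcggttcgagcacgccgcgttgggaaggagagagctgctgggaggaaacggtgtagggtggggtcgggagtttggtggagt
Mcm10 promoter: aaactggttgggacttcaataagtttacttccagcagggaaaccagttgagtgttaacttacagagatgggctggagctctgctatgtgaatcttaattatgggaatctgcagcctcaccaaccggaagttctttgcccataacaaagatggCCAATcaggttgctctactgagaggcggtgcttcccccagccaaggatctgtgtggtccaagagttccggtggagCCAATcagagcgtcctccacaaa
Mcm6 promoter: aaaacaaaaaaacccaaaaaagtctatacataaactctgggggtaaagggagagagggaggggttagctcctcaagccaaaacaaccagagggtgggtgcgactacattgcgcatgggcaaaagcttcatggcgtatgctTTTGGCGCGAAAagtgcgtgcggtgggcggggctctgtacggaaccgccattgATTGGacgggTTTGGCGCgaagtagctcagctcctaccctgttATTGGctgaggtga
Birc5 promoter: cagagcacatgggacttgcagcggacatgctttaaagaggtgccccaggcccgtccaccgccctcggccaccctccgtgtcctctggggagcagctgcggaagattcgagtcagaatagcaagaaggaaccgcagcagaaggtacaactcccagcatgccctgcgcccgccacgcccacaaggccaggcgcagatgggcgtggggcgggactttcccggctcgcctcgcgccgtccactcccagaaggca
Top2a promoter: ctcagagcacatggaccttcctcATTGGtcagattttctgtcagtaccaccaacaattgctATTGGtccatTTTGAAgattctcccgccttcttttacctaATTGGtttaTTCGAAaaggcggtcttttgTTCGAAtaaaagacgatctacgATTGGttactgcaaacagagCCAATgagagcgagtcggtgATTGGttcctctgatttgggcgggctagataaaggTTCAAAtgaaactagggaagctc
Cdk1 promoter: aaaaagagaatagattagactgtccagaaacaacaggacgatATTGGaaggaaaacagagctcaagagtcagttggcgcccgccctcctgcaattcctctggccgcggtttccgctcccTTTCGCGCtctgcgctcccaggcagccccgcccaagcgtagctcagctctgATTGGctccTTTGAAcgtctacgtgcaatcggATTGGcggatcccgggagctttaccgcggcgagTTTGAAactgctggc

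Ampicillin without tributyrin moved few of the 44 genes. Relative to vehicle, 4 fell and 0 rose (limma on log2(TPM + 1), Benjamini-Hochberg adjusted p under 0.05 over all genes tested), and 3 of the 4 were S phase genes, with 0 of the 20 G2 and M genes. This split was not stable: without vehicle replicate 3 the 4 called genes were 1 of S phase (Mcm6) and 3 of G2 and M (Ccnb2, Cdc20 and Cenpa). With a replicate block 2 of S phase and 3 of G2 and M were called. The 4 are 9.09% of the list, and 10.2% of all genes tested were called lower and 11.0% higher, so the share is close to the background. At an unadjusted p under 0.05, 11 of the 44 passed, as did 4136 of the 12155 genes tested, so this count is not above the background either. The change was below 0 in 38 of 44 genes with a median log2 fold change of -0.11 (S phase -0.15, G2 and M -0.07), against 0.02 for all genes. In bulk RNA of such a cell preparation, fewer dividing cells and less RNA of these genes per cell cannot be told apart.

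Among replication genes, Mcm6, a subunit of the MCM2-7 helicase (chr1:128331575-128359705), measured 58.6, 62.9 and 62.8 TPM with vehicle and 49.1, 46.6 and 51.8 TPM with ampicillin. The groups did not overlap, and Mcm6 fell by 0.32 ± 0.0681 (SE) on the log2 scale (adjusted p = 0.0119). The other 5 subunits had changes below 0 that did not pass. Pold1, the catalytic subunit of DNA polymerase delta, measured 17.5, 17.3 and 18.1 TPM with vehicle and 15.2, 14.4 and 15 TPM with ampicillin, and fell by 0.23 ± 0.0597 (adjusted p = 0.0252).

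The other called genes were E2f1 and Ccnd1. E2f1, the transcription factor that drives S phase genes, measured 8.47, 7.87 and 9.07 TPM with vehicle and 6.58, 6.85 and 6.68 TPM with ampicillin, without overlap, and fell by 0.30 ± 0.0809 (adjusted p = 0.0326). Ccnd1, cyclin D1, the G1 cyclin, measured 28.2, 34.2 and 30.9 TPM against 23.9, 24.4 and 24.4 TPM, and fell by 0.34 ± 0.101 (adjusted p = 0.0427). The genes next in order of adjusted p did not pass. These were Stmn1 (-0.23, adjusted p = 0.0569), the mitotic cyclin Ccnb2 (-0.39, adjusted p = 0.0646), the anaphase activator Cdc20 (-0.30, adjusted p = 0.0754), the centromeric histone Cenpa (-0.31, adjusted p = 0.0785) and the replisome subunit Gins2 (-0.15, adjusted p = 0.1). Lower values without overlap of the groups were found in 11 of 44 genes, 9 of them of S phase and 0 of G2 and M, against 18.2% of all genes tested. The count of called genes rested on single libraries: it was 2 without vehicle replicate 1, ampicillin replicate 1 or ampicillin replicate 3, and 1, Mcm6, without ampicillin replicate 2. Of all genes tested, 17.2%, 15.5%, 14.9% and 14.6% were called in these fits, in the same order. Over all 9 omissions of a single library the G2 and M median lay between -0.16 and 0.01. Mcm6 passed in all 19 alternative settings, Pold1 in 14, and E2f1 and Ccnd1 in 11 each.

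Markers of the crypt moved in the same comparison. The 14 markers of crypt stem cells summed to 277 to 286 TPM with vehicle and 223 to 241 TPM with ampicillin, and 5 of the 12 tested fell (Lgr5, Smoc2, Lrig1, Cdca7 and Msi1). Olfm4, which was too low for testing, was listed at 0 in all 3 ampicillin libraries and at 0.0559, 2.66 and 0.918 TPM with vehicle. Epithelial markers were lower too, with 6 of 9 called. The part of either in the lower levels of Mcm6, Pold1, E2f1 and Ccnd1 was not tested.

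Several replication genes and fewer mitotic genes were higher in ampicillin-treated mice given tributyrin, led by Cdc6, Mcm10 and Mcm3. Relative to ampicillin with mock gavage, 15 of the 44 rose and 0 fell, which is 34.1% of the list, where 15.6% of all genes tested were called higher and 7.54% lower. Of S phase genes 10 of 22 rose (45.5%), and of G2 and M genes 4 of 20 (20%); Ccnd1 made up the rest. The change was above 0 in 42 of 44 genes, the exceptions being Lig1 and Stmn1, against 59.7% of all genes. The median log2 fold change was 0.28 over the list, 0.27 for S phase and 0.30 for G2 and M genes, against 0.05 for all genes. Values of the tributyrin libraries lay above all ampicillin libraries in 22 of 44 genes (12 of S phase, 9 of G2 and M), against 27.3% of genes tested. This comparison uses the same ampicillin libraries as the one with vehicle, so a low ampicillin level enters both.

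**Figure D2:**
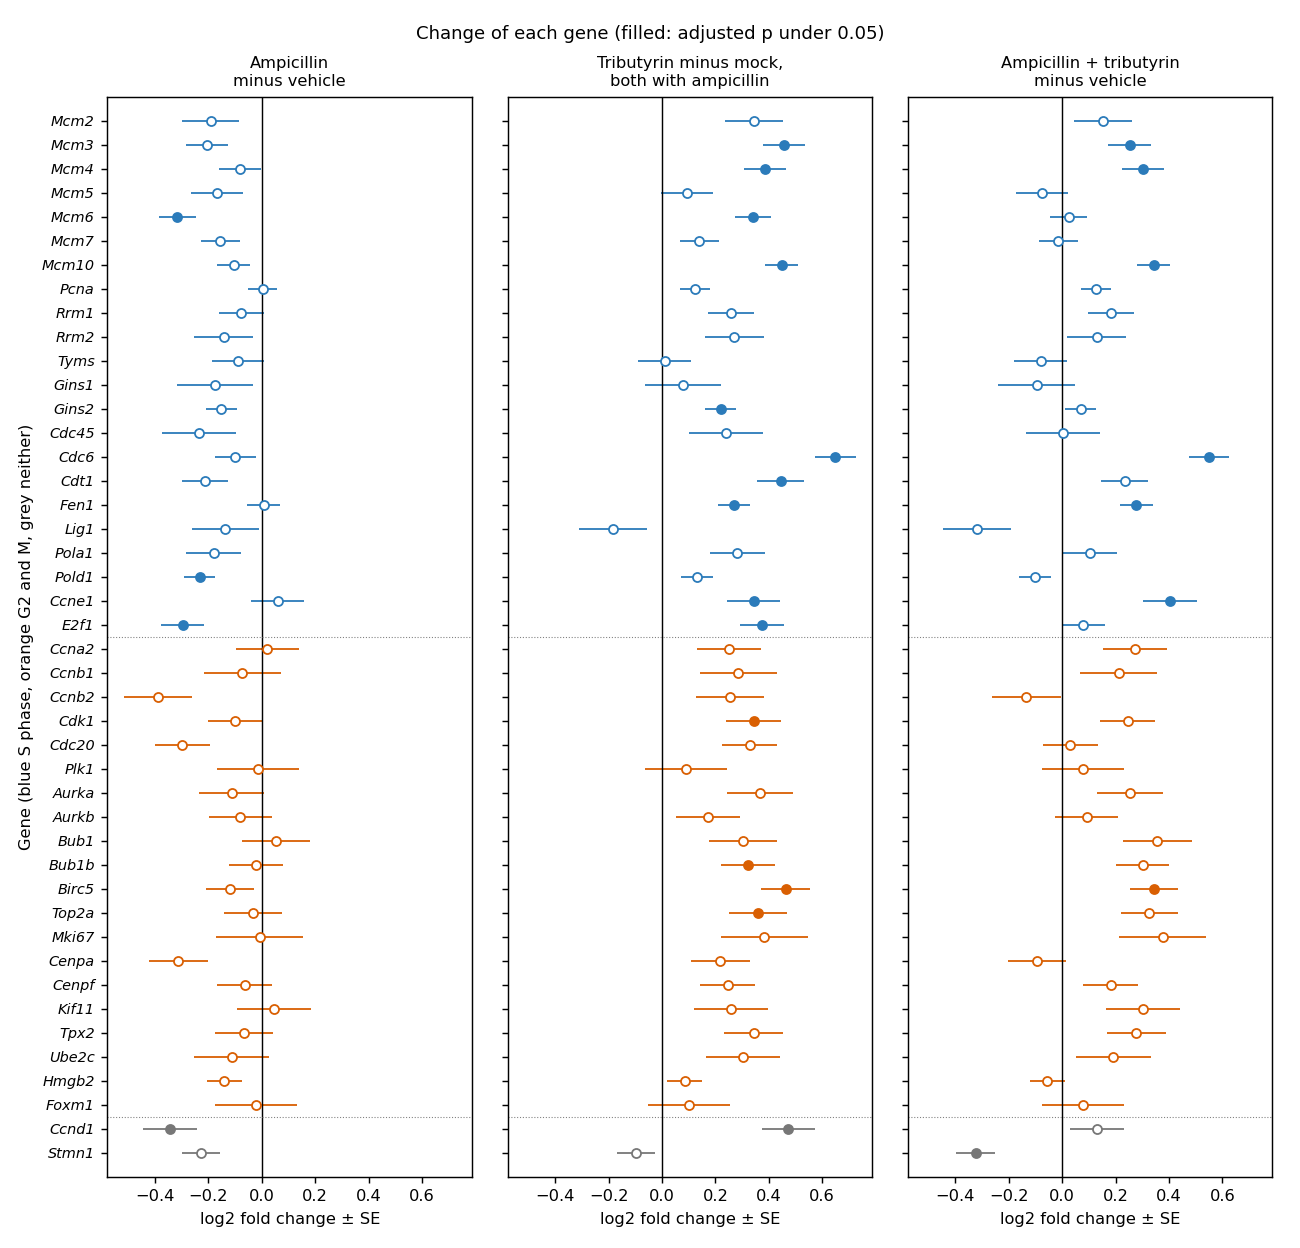
Log2 fold change of each of the 44 genes on log2(TPM + 1) with its standard error (horizontal axis) in the 3 comparisons, S phase in blue, G2 and M in orange, neither in grey; filled points have an adjusted p under 0.05. In the middle panel 42 of 44 points lie right of 0 and 15 are filled, whereas 4 are filled on the left panel, all below 0.

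Of the 44 genes, the licensing factor Cdc6 changed by the most. Cdc6 (chr11:98907709-98923942) measured 3.84, 3.86 and 4.19 TPM with ampicillin and 6.93, 7.18 and 6.27 TPM with tributyrin, and 4.65, 4.36 and 3.95 TPM with vehicle. All 3 tributyrin libraries were above the other 6. Cdc6 rose 1.71-fold in mean TPM, with a log2 fold change of 0.65 ± 0.0757 (SE, adjusted p = 0.00110). Cdt1, its partner in loading the helicase, measured 23.8, 22.6 and 23.3 TPM with ampicillin and 34, 35 and 27.5 TPM with tributyrin, where replicate 3 was the lowest but still above each ampicillin library. Its log2 fold change was 0.45 ± 0.0872 (adjusted p = 0.00884).

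The MCM2-7 helicase, which unwinds DNA at the fork, rose in 3 of its 6 subunits, and the change was above 0 in all 6. Mcm3 measured 30.5, 26.7 and 30.4 TPM with ampicillin and 42.5, 43.1 and 36.0 TPM with tributyrin, a log2 fold change of 0.46 ± 0.0802 (adjusted p = 0.00540). Mcm4 measured 19.7, 18.4 and 21.5 TPM and then 28.6, 26.9 and 23.5 TPM (0.39 ± 0.0793, adjusted p = 0.0106). Mcm6 measured 66.6, 64.0 and 57.1 TPM with tributyrin and rose by 0.34 ± 0.0681 (adjusted p = 0.00963) from its ampicillin level given above. In all these subunits the groups did not overlap and tributyrin replicate 3 was the lowest of its group. Mcm2 missed the threshold (0.34 ± 0.108, adjusted p = 0.0508), and Mcm5 (0.09) and Mcm7 (0.14) lay lower. Mcm10, which is not a subunit of the ring but joins it to the polymerases, measured 12.7, 12.9 and 13.4 TPM with ampicillin and 16.9, 18.7 and 18.8 TPM with tributyrin. Its groups were far apart for their spread (0.45 ± 0.0611, adjusted p = 0.00189).

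At the fork, Fen1, the flap endonuclease of Okazaki fragment processing, measured 25.5, 23.4 and 25.7 TPM with ampicillin and 30.1, 32.3 and 28.2 TPM with tributyrin (0.27 ± 0.0616, adjusted p = 0.0159). Gins2, of the GINS complex that activates the helicase, rose from 23.4 ± 1.32 to 27.4 ± 1.06 TPM (SD, n = 3; log2 fold change 0.22, adjusted p = 0.0265). Other genes of the fork did not pass. Pcna had 227 to 248 TPM with ampicillin and 245 to 269 TPM with tributyrin (0.12 ± 0.0560, adjusted p = 0.143), with overlap. Lig1, the ligase that seals Okazaki fragments, measured 45.3, 40.0 and 40.9 TPM with ampicillin and 40.0, 42.3 and 29.6 TPM with tributyrin (-0.18 ± 0.127, adjusted p = 0.334). Of the genes of deoxynucleotide supply, the ribonucleotide reductase subunits Rrm1 (0.26, adjusted p = 0.0585) and Rrm2 (0.27, adjusted p = 0.109) and thymidylate synthase Tyms (0.01, adjusted p = 0.958) did not pass.

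E2f1, Ccnd1 and Ccne1 also rose. E2f1 measured 10.1, 8.96 and 8.06 TPM with tributyrin (0.38 ± 0.0809, adjusted p = 0.0128), all above the 6.58 to 6.85 TPM of ampicillin. Ccnd1 measured 35.1, 38.4 and 29.2 TPM (0.47 ± 0.101, adjusted p = 0.0122), again without overlap. Ccne1, cyclin E1, which activates Cdk2 at the start of S phase, rose from 10.3 ± 0.84 to 13.4 ± 1.88 TPM (SD, n = 3; adjusted p = 0.0398).

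**Figure D3:**
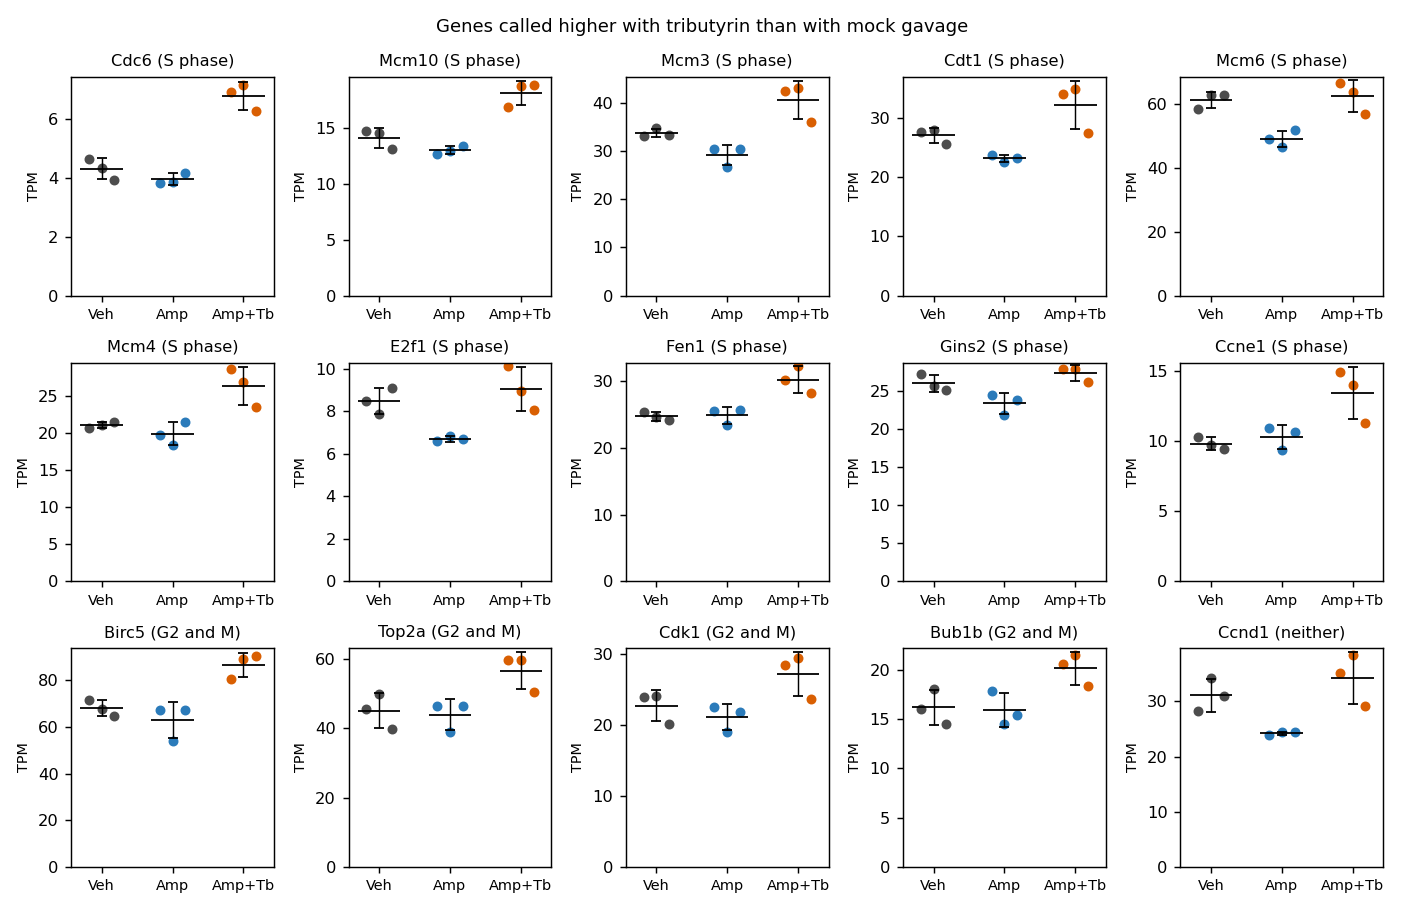
TPM (vertical axes, from 0) of the 15 genes that rose with tributyrin, in vehicle (Veh), ampicillin (Amp) and ampicillin with tributyrin (Amp+Tb) libraries; points are libraries in replicate order, lines the group mean and bars the SD over 3 libraries. In each panel the 3 tributyrin libraries lie above the 3 ampicillin libraries, as for Cdc6 (6.27 to 7.18 against 3.84 to 4.19 TPM).

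Of the G2 and M genes 4 passed, and the difference in this share from that of S phase genes was not tested. Birc5, survivin, a subunit of the chromosomal passenger complex (chr11:117849237-117855743), measured 67.4, 54.0 and 67.3 TPM with ampicillin and 80.8, 89.0 and 90.4 TPM with tributyrin. It was the only 1 of the 4 called G2 and M genes whose tributyrin replicate 3 was not the lowest of its group, and its log2 fold change was 0.46 ± 0.0907 (adjusted p = 0.00885). Top2a, topoisomerase II alpha, which untangles the copied chromosomes, rose from 44 ± 4.4 to 56.8 ± 5.32 TPM (SD, n = 3; adjusted p = 0.0427). Cdk1, the kinase that drives mitosis, rose from 21.2 ± 1.86 to 27.2 ± 3.04 TPM (adjusted p = 0.0444), and Bub1b, of the spindle checkpoint, from 15.9 ± 1.68 to 20.1 ± 1.65 TPM (adjusted p = 0.0498).

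Just past the threshold lay Cdc20 (0.33, adjusted p = 0.0507) and the spindle factor Tpx2 (0.34, adjusted p = 0.0532). The kinase Aurka (0.37, adjusted p = 0.0615) did not pass either, and neither did the cyclins Ccna2 (0.25), Ccnb1 (0.29) and Ccnb2 (0.25). Mki67, the proliferation antigen Ki-67, had a larger change than Cdk1 but did not pass. It measured 25.1, 19.7 and 24.1 TPM with ampicillin and 32.9, 34.6 and 23.8 TPM with tributyrin (0.38 ± 0.163, adjusted p = 0.121), and tributyrin replicate 3 lay below 2 ampicillin libraries. Plk1 (0.09) and the transcription factor Foxm1 (0.10) had small changes with standard errors of 0.153 each.

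The count of 15 moved with single libraries. It was 9 without ampicillin replicate 2 and 9 without tributyrin replicate 2, and it was 26, with 16 of S phase and 9 of G2 and M, without tributyrin replicate 3. Of all genes, 9.87%, 8.52% and 18.5% were called higher in the same fits, against 15.6% with all libraries. No gene of the list was called lower in any of these fits, and the S phase median stayed between 0.22 and 0.36 and the G2 and M median between 0.21 and 0.39. Mcm3, Mcm4, Mcm6, Mcm10, Cdc6, Cdt1, E2f1, Birc5 and Ccnd1 passed in all 19 alternative settings, Fen1 in 17, Gins2 in 14, Ccne1 and Bub1b in 9, and Cdk1 and Top2a in 8. Median-of-ratios scaling, which sets the median change of all genes to 0 here, gave 11 genes higher and 0 lower, with medians of 0.22 for S phase and 0.24 for G2 and M. Under that scaling 12.5% of all genes were called higher.

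The larger number of S phase calls was not accompanied by a larger mean change. Over the 22 S phase genes the mean log2(TPM + 1) per library was 4.63, 4.51 and 4.63 with ampicillin and 4.93, 4.94 and 4.68 with tributyrin, so the groups did not overlap and differed by 0.26. Over the 20 G2 and M genes it was 4.87, 4.59 and 4.76 with ampicillin and 5.08, 5.12 and 4.84 with tributyrin, a difference of 0.27 with overlap, since tributyrin replicate 3 lay below ampicillin replicate 1. The S phase mean minus the G2 and M mean was -0.15 ± 0.077 with ampicillin and -0.16 ± 0.0212 with tributyrin (SD, n = 3), a difference of -0.01 that is under the spread between libraries. With vehicle it was -0.10 ± 0.128. Within groups the G2 and M genes varied more: the median SD of log2(TPM + 1) was 0.17 for them, 0.11 for S phase genes and 0.10 for all genes tested. The same held within vehicle (0.18 against 0.06), ampicillin (0.14 against 0.09) and tributyrin libraries (0.16 against 0.14).

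**Figure D4:**
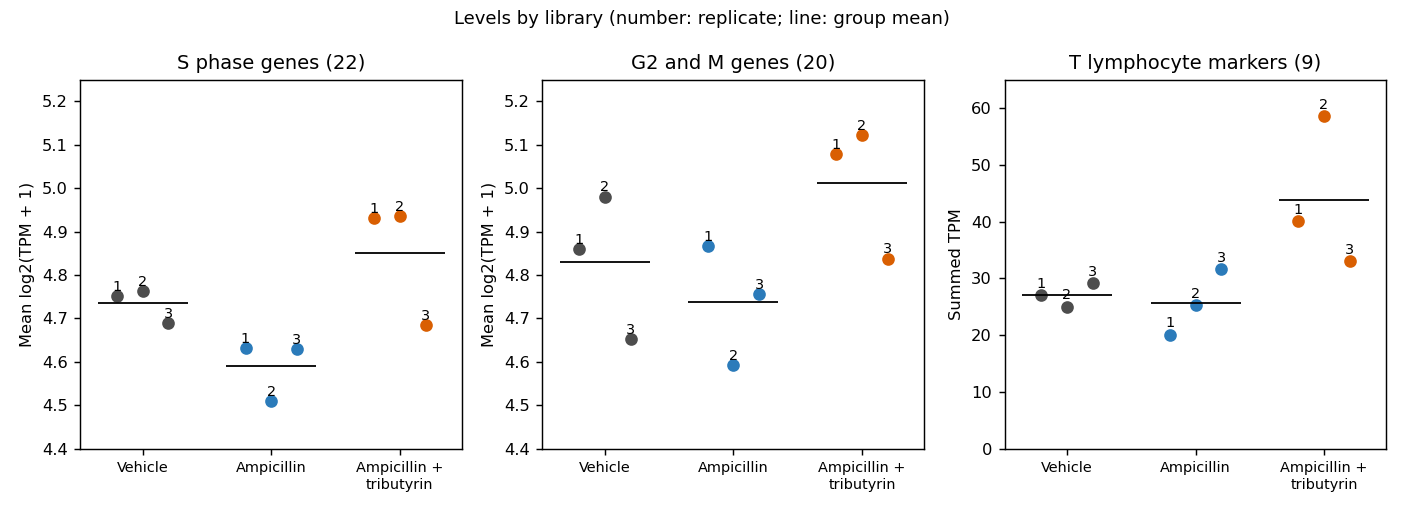
Mean log2(TPM + 1) of the 22 S phase genes (left) and the 20 G2 and M genes (middle), and summed TPM of 9 T lymphocyte markers (right), by group; points are libraries marked with their replicate number and lines are group means. The first 2 axes do not start at 0. S phase means with tributyrin (4.68 to 4.94) lie above those with ampicillin (4.51 to 4.63), while G2 and M means overlap.

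Most of the 44 genes rose or fell together from library to library within a group. Tributyrin replicate 3 was the lowest of its group in 41 of 44 genes, although it was also the lowest in 57.7% of all genes tested. Ampicillin replicate 2 was the lowest in 37 of 44, against 21.8% of all genes, and it held the lowest value of all 9 libraries in 27 of 44. Vehicle replicate 3 was the lowest in 33 of 44, against 27% of all genes. For G2 and M genes each of these libraries was the lowest of its group in 19 of 20. The S phase genes shared the pattern in tributyrin replicate 3 (21 of 22) and ampicillin replicate 2 (17 of 22), and less evenly in vehicle replicate 3 (14 of 22). The highest of the 9 values fell in tributyrin replicate 2 for 24 genes and in tributyrin replicate 1 for 10.

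**Figure D5:**
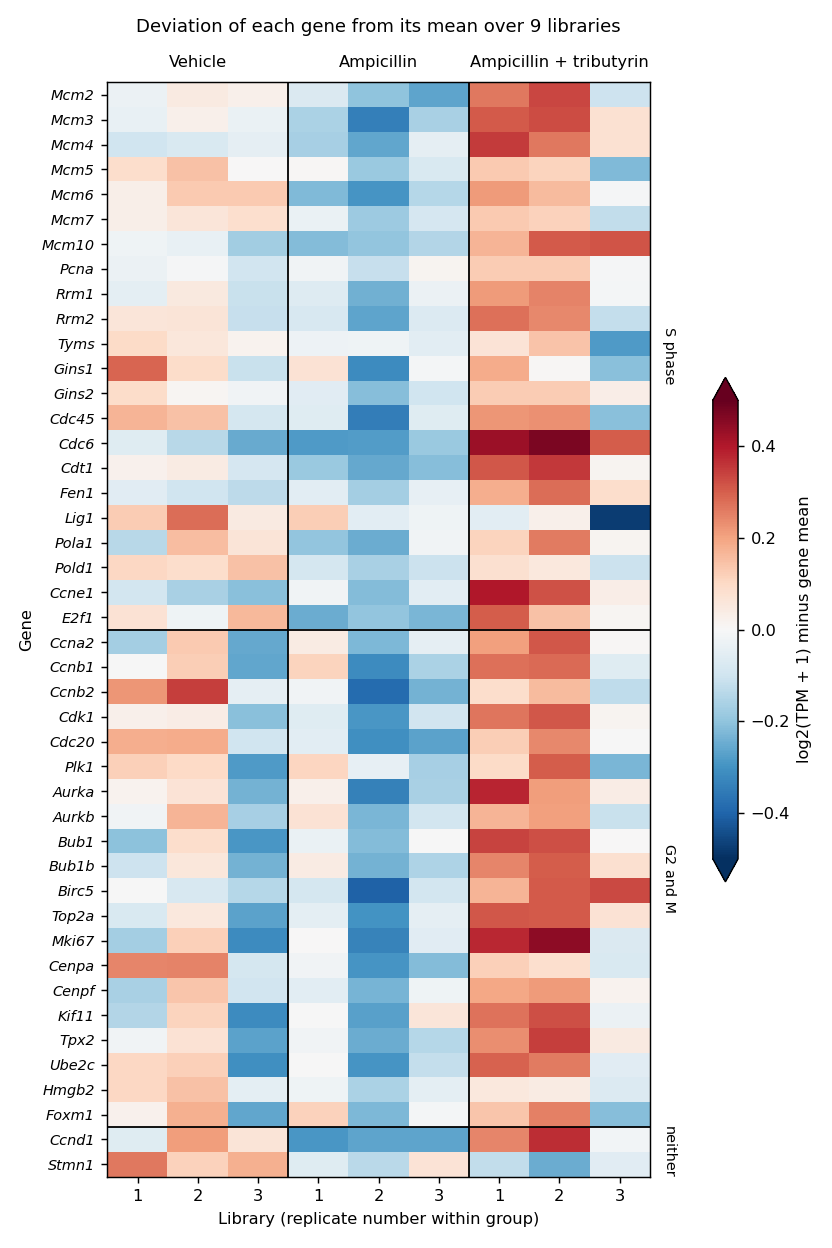
Deviation of log2(TPM + 1) from each gene's mean over 9 libraries (color, red above and blue below), with genes in rows by phase and libraries in columns by group and replicate number. Tributyrin replicates 1 and 2 are mostly red and ampicillin replicate 2 mostly blue, the latter being the lowest of its group in 37 of 44 genes.

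Markers of other cell types, and of the epithelium itself, were measured beside these results. The 9 T lymphocyte markers summed to 20.1, 25.3 and 31.6 TPM with ampicillin and to 40.1, 58.6 and 33.0 TPM with tributyrin, and to 25.0 to 29.2 TPM with vehicle. None was at 0, 3 of the 8 tested rose with tributyrin (Cd3d, Cd8a and Lck), and all 8 had changes above 0 with a median of 0.60. Within the tributyrin group their sum was lowest in replicate 3, as most of the 44 genes were, and highest in replicate 2, as 26 of the 44 were. In the other groups the order differed: the sum was lowest in ampicillin replicate 1 and highest in vehicle replicate 3. Hemoglobin and other erythroid transcripts summed to 94.3 to 134 TPM with tributyrin and 13.4 to 36.6 TPM with ampicillin. The endothelial marker Pecam1, the 1 tested of 5, averaged 3.79 TPM with vehicle, 0.586 TPM with ampicillin (-1.60, adjusted p = 4.02e-05) and 1.38 TPM with tributyrin (0.58 against ampicillin, adjusted p = 0.00679). The other endothelial markers were too low for testing and did not share this pattern. In the same order of groups Vwf averaged 0.32, 0.292 and 0.482 TPM and Eng 0.0544, 0.0816 and 0.0785 TPM, while Kdr and Cdh5 were near 0. Of 9 epithelial markers 2 rose with tributyrin relative to ampicillin, Cdh1 (0.32, adjusted p = 0.00665) and Krt18 (0.56, adjusted p = 0.00129). Crypt stem markers summed to 230 to 270 TPM with tributyrin, and 2 of 12 rose, Cdca7, itself a gene of dividing cells, and Msi1, while Lgr5 had means of 5.98 TPM with ampicillin and 5.72 TPM with tributyrin. The part of these cells in the rise of Cdc6, Mcm3 and the other genes was not tested.

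Other genes of the same processes, 137 in 7 lists, were measured beside the 44, and all 137 could be tested. With tributyrin 36 rose (26.3%) and 0 fell relative to ampicillin, with a median log2 fold change of 0.23, against the 15.6% of all genes tested called higher and 7.54% lower. Polymerases, primase, clamp loader and fork genes rose in 11 of 22 cases (50%), including the primase subunit Prim1 (20.6 ± 2.28 to 29.6 ± 2.61 TPM, SD, n = 3; 0.51 ± 0.0916, adjusted p = 0.00634), the polymerase epsilon subunit Pole2 (0.56, adjusted p = 0.0398) and the single-strand binding protein Rpa1 (0.58, adjusted p = 0.0437). Origin genes rose in 6 of 15 (40%), with Recql4 (0.40), Gins3 (0.31) and the origin recognition subunit Orc1 (0.31) the largest. Nucleotide supply genes rose in 2 of 7 (28.6%), Umps (0.44) of pyrimidine synthesis and the dUTPase Dut (0.28).

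Genes of replication-coupled chromatin rose in 5 of 8 cases (62.5%). Uhrf1, which brings the maintenance DNA methyltransferase to the fork, measured 26.4, 22.6 and 22.6 TPM with ampicillin and 41.3, 42.7 and 30.3 TPM with tributyrin (0.64 ± 0.124, adjusted p = 0.00816). The chromatin remodeler Hells (0.43, adjusted p = 0.0103) and the histone chaperone subunit Chaf1b (0.40, adjusted p = 0.0459) were next. Of 32 cell cycle control genes 9 rose (28.1%). Among them Myc, the growth-promoting transcription factor, measured 33.3, 32.3 and 31.2 TPM with ampicillin and 51.3, 62.4 and 43.8 TPM with tributyrin (0.67 ± 0.112, adjusted p = 0.00443). The checkpoint kinase Chek1 (0.54, adjusted p = 0.00491) and E2f2 (0.52, adjusted p = 0.0223) also rose.

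The mitotic lists, of 19 kinetochore and 34 spindle genes, had called shares of 5.26% and 5.88%, below the 15.6% of all genes. Their changes were still above 0 in 17 of 19 and 32 of 34 genes (89.5% and 94.1%), against 59.7% of all genes. The medians were 0.19 and 0.24, against 0.05 for all genes. All tributyrin libraries lay above all ampicillin libraries in 6 of 19 and 13 of 34 genes, against 27.3% of genes tested. Of kinetochore, checkpoint and cohesion genes 1 of 19 rose, Spc25 of the Ndc80 complex (0.31, adjusted p = 0.0161). Of spindle, condensin and cytokinesis genes 2 of 34 rose, the microtubule-binding proteins Ckap5 (0.30, adjusted p = 0.0144) and Tacc3 (0.26, adjusted p = 0.0354). The median change of the 34 was 0.24, like that of the 22 fork genes (0.24), beside counts of 2 of 34 and 11 of 22; the difference between these lists was not tested. With ampicillin alone 1 of the 137 rose (0.73%) and 3 fell (2.19%) relative to vehicle, below the 11.0% and 10.2% of all genes. Lin54 of the MuvB complex rose by 0.34 (adjusted p = 0.0484), and the clamp loader subunit Rfc2 (-0.31, adjusted p = 0.0146), the Cdk1-inhibiting kinase Pkmyt1 (-0.33, adjusted p = 0.0219) and the phosphatase Cdc25b (-0.29, adjusted p = 0.0479) fell.

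Mice given both ampicillin and tributyrin were also compared with vehicle, which asks how far levels lay from those of mice with neither. Of the 44 genes 7 rose (15.9%) and 1 fell, where 28.3% of all genes tested were called, 19.1% higher and 9.21% lower, so the share is not above the background. Groups did not overlap for 9 of the 44 genes that were higher, against 28.5% of all genes, and for 3 that were lower, against 13.2%. The genes that rose were Cdc6 (0.55 ± 0.0757, adjusted p = 0.00161), Mcm10 (0.34 ± 0.0611, adjusted p = 0.00485), Fen1 (0.28 ± 0.0616, adjusted p = 0.0123), Ccne1 (0.40 ± 0.1, adjusted p = 0.0191), Mcm4 (0.30 ± 0.0793, adjusted p = 0.0228), Birc5 (0.34 ± 0.0907, adjusted p = 0.0238) and Mcm3 (0.25 ± 0.0802, adjusted p = 0.0459). All but Birc5 are S phase genes, 6 of 22 (27.3%) beside 1 of 20 G2 and M genes (5%). That split moved with the fit: it was 4 and 4 without vehicle replicate 2, and 9 and 9 with array weights. Top2a (0.33, adjusted p = 0.0511) and Bub1b (0.30, adjusted p = 0.0543) just missed the threshold. For Mcm6 the mean was 62.6 ± 4.92 TPM with tributyrin and 61.4 ± 2.47 TPM with vehicle (SD, n = 3). The means of E2f1 were 9.02 ± 0.995 and 8.47 ± 0.596 TPM, and those of Ccnd1 34.3 ± 4.68 and 31.1 ± 3.01 TPM.

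Stmn1 was the gene that fell. It measured 321, 289 and 302 TPM with vehicle, 256, 243 and 280 TPM with ampicillin and 245, 225 and 257 TPM with tributyrin, where no tributyrin library reached the lowest vehicle library. It fell by 0.32 ± 0.0720 relative to vehicle (adjusted p = 0.0122), with no call between the ampicillin groups (-0.10, adjusted p = 0.361). Lig1 had a similar order of means, 46.3 ± 3.87, 42.0 ± 2.84 and 37.3 ± 6.78 TPM, without passing (adjusted p = 0.0955). The median over the list was 0.14 (S phase 0.12, G2 and M 0.23), against 0.08 for all genes. Of the 137 other genes 30 rose and 0 fell, and the 21.9% that rose is near the 19.1% of all genes. The count of 8 called genes was 4 without vehicle replicate 3, 5 without tributyrin replicate 1, 4 without tributyrin replicate 2 and 18 without tributyrin replicate 3. Of all genes, 19.3%, 20.9%, 17.2% and 31.1% were called in these fits, in the same order. Under median-of-ratios scaling 5 genes were higher and 3 lower, with Lig1 and Pold1 joining Stmn1, and 27.3% of all genes were called.

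Median responses to tributyrin were close between genes with and without each of the E2F and CHR motifs. The 10 genes with an E2F match had a median log2 fold change of 0.31 relative to ampicillin with a range from -0.18 (Lig1) to 0.65 (Cdc6), and the 25 without one a median of 0.29. Medians were 0.29 for the 18 genes with a CHR and 0.29 for the 17 without, and 0.28 for the 26 with CCAAT and 0.34 for the 9 without. Birc5, with none of the motifs in its printed promoter, had the largest change among G2 and M genes, and Cdc6, with 1 E2F match, the largest of the list.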

How the data were processed

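RNA libraries were made with a NEBNext Ultra II kit from cells released with DTT and EDTA and then Dispase, per the labels' protocols. The values are TPM per gene, as deposited by the authors; the submitters' processing notes name Salmon 0.8.2, DESeq2 1.20.0 and mm10 without stating a role, and the strand setting is not given in the sources used here. Groups came from the sample titles. Values were tested on log2(TPM + 1) with limma 3.58.1 in R 4.3.3, with a trend on mean level, over all 9 libraries without a replicate block (6 residual degrees of freedom) and for the 12155 genes with a mean of at least 1 TPM. Fold changes on this scale understate those of low genes. P-values were two-sided and adjusted by Benjamini-Hochberg over all genes tested, and the threshold was 0.05. Of the 24091 gene IDs, 24045 matched RefSeq. The code was tested on simulated data. The 44 genes and all lists were chosen with earlier results of these data known. Full statistics were given for up to 10 called genes by adjusted p, with fewer than 5 called also for the next 5, and up to 3 called genes per additional list by size. Alternatives covered pseudocount, filter, scaling, trend, weights, groups fitted, replicate block and omitted libraries.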

Additional observations from a re-analysis of the deposited data

How the results depend on the processing

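Over the alternatives no called gene changed direction, and no difference between the S phase and G2 and M means moved by more than its SD. For ampicillin against vehicle, the 4 called genes became 2 without a filter on low values, 7 with median-of-ratios scaling, 7 with the replicate block, 8 with array weights and 1 to 6 when single libraries were left out. Of all genes tested, 21.3% were called in the main fit, and in the same order 13%, 22.1%, 22.3% and 28.8%. With single libraries left out, 1774 to 2810 of all genes were called. For tributyrin against ampicillin, the 15 became 33 with array weights and 9 to 26 with single libraries left out. For ampicillin and tributyrin against vehicle, the 8 became 19 with array weights and 4 to 18 with single libraries left out. Over all genes, the tributyrin calls numbered 2819, 4271 with array weights and 1587 to 3011 with single libraries left out. Those against vehicle numbered 3444, 4371 and 2093 to 3786 in the same order. The share of higher calls among all calls of tributyrin against ampicillin was 67.2%, and 50.2% with median-of-ratios scaling and 47.3% with quantile normalization; against vehicle it was 67.5%, and 47.3% and 50.2%. The cause of these changes was not tested. Fits with an omitted library also had fewer samples. Deviations of samples with the same replicate number correlated at -0.05 to 0.108, and those with different numbers at -0.117 to 0.075, and no label says that a number marks a shared animal or batch, so the samples were treated as unpaired. In 10 of 18 cases a library correlated best with its own number, where chance gives 6. These cases are not independent, since each correlation enters from both of its libraries, so no pairing can be read from them. With the replicate block the called genes of the list were 7, 18 and 8 in the 3 comparisons, beside 22.3%, 24.8% and 29.4% of all genes tested. With TPM the depth is unknown, so no counting error can be given for low genes such as Cenpf or Cdc6.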
